A study of Mus musculus with 18 samples.

Results

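The genes described here are 33 members of the lysosome, chosen by name from the raw count table: 8 lysosomal proteases and peptidases, 6 glycosidases, 2 lipid-handling genes, 4 membrane proteins, the transcription factor gene Tfeb and 12 genes of the vacuolar proton pump (V-ATPase). All 33 were among the 24537 gene symbols of the table, and all 33 had enough counts to be among the 11651 genes tested. RNA sequencing was done on mouse CD8+ T cells in culture, and the design asked how lithocholic acid (LCA), a secondary bile acid, acts on cells with and without the nuclear receptor Nur77, encoded by Nr4a1. Naïve cells first received CRISPR ribonucleoprotein with a Synthego guide kit against Nur77 (labelled KO) or a scrambled guide (labelled WT). All groups were then activated with antibodies to CD3 and CD28 and kept overnight before RNA was isolated. The 6 groups, with 3 libraries each, were KO and WT cells without LCA (control), with 10 µM LCA (LCA10) and with 50 µM LCA (LCA50).

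Because KO cells are a guide-treated population and not a clone, they may hold unedited cells, and the labels give neither the share of edited cells nor the age, sex or strain of the mice. The labels also do not say whether the 3 libraries of a group came from separate mice or cultures, so the error behind each p-value is that between these 18 libraries and may be technical. Total counts ran from 4113713 to 5945518 per library, and the counts of the 33 genes ran from 24 to 3723 in a single library. Nr4a1 lay between 5.87 and 18 CPM (read counts scaled to the size of each library) and its log2 difference between KO and WT was 0.14 ± 0.33 (standard error) in control, -0.16 ± 0.33 at LCA10 and -0.45 ± 0.33 at LCA50 (edgeR, adjusted p = 0.963, 0.952 and 0.604), so these counts do not show the edit. The CD8 T cell markers summed to 2650 to 3530 CPM and the B cell markers to 4.90 to 12.6 CPM over all libraries, and several marker lists differed between LCA50 and control, as given below beside the LCA50 counts.

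Lysosomes break down proteins, glycans and lipids with acid hydrolases, and the V-ATPase pumps in the protons that keep them acidic. The pump has a membrane-embedded V0 sector, which carries protons, and a cytosolic V1 sector, which hydrolyses ATP. In human cells, TFEB and related factors raise many lysosomal genes together through E-box-like promoter elements. In cytotoxic T cells, lytic granules are lysosome-related organelles, cathepsin C trims pro-granzymes to their active form, and LAMP1 reaches the cell surface when granules are released.

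At 50 µM LCA against control, the protease gene Ctsc and the membrane protein gene Lamp1 fell in both genotypes, while the calcium channel gene Mcoln1 and the pump subunit gene Atp6v0a1 rose in both. The enzyme genes Ctsl and Gusb fell in KO cells, and Ctsa, Ctsb, Lipa and the pump subunit gene Atp6v1d fell in WT cells. In all, 2 of the 33 genes rose and 4 fell in KO cells, and 2 rose and 6 fell in WT cells. Called means an adjusted p under 0.05 in edgeR's quasi-likelihood test, Benjamini-Hochberg adjusted over all genes tested. The 6 calls in KO cells are 18.2% of the 33 genes, against 6.35% of all genes tested, and the 8 calls in WT cells are 24.2%, against 8.58% of all genes. In KO cells 2.93% of all genes were called higher and 3.42% lower, and in WT cells 3.66% higher and 4.93% lower. Without WT LCA50 library 2 the WT count was 4, and without WT control library 3 or WT LCA50 library 3 it was 5. The median log2 fold change of the 33 genes was -0.08 in KO cells and -0.17 in WT cells, where the medians over all genes tested were 0.00 and 0.01. The LCA50 and control libraries did not overlap for 5 higher and 8 lower genes of the 33 in KO cells (11.5% and 11.9% of all genes) and for 3 higher and 16 lower genes in WT cells (13.1% and 13.7% of all genes).

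Markers of the T cells themselves also differed between LCA50 and control. The CD8 T cell list summed to 2650 to 3220 CPM in KO LCA50 libraries, against 3250 to 3370 CPM in KO control libraries. In WT cells it summed to 2820 to 3130 CPM at LCA50, against 3430 to 3530 CPM in control, so the groups did not overlap in either genotype. Means were lower at LCA50 for 6 of its 7 genes in each genotype. Cd8b1, the CD8 beta chain, fell by 0.35 in KO cells (edgeR, adjusted p = 0.00282) and by 0.58 in WT cells (adjusted p = 3.19e-06), and Cd3g fell by 0.34 in WT cells (adjusted p = 0.0236). The 3 NK and gamma delta T cell markers summed to 99.9 to 139 CPM in KO LCA50 libraries, against 77.7 to 90.6 CPM in KO control libraries. In WT cells they summed to 132 to 156 CPM at LCA50, against 88 to 98.7 CPM in control. Nearly all of that sum was Eomes, a transcription factor gene that activated CD8 T cells also express, which rose by 0.52 in KO cells (adjusted p = 0.0014) and by 0.65 in WT cells (adjusted p = 5.83e-05). The other markers of that list, Ncr1 and Klrb1c, were at 0 in 9 and 6 of 18 libraries. The 4 CD4 T cell markers summed to 18.6 to 36.1 CPM in KO LCA50 libraries, against 14.3 to 18.5 CPM in KO control libraries, and to 20.6 to 25.6 CPM in WT LCA50 libraries, against 12.5 to 17.9 CPM in WT control libraries. Neither of the 2 tested, Foxp3 and Zbtb7b, was called by edgeR, and Cd4 itself was at 0 in 10 of 18 libraries. The 7 B cell markers summed to 4.90 to 7.83 CPM in KO LCA50 libraries, against 8.67 to 11.5 CPM in KO control libraries, and overlapped in WT cells. Most of that sum was Cd79b, the only 1 of them tested. It averaged 6.7 CPM over all libraries, where the other markers averaged from 0.0467 to 0.608 CPM. Cd79b fell by 1.07 in KO cells (edgeR, adjusted p = 0.025) and was not called in WT cells. The part of these markers in the lysosomal results was not tested.

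The promoters shown here belong to genes that moved in opposite directions at LCA50. They are the RefSeq windows on GRCm38.p6, 300 bases from 250 before the start to 50 after it, and 29 of the 33 genes had an entry in the table. Ctsb, Atp6v1b2, Atp6v1c1 and Atp6v1h had none. Capitals mark the letters TCACGTG on either strand (CACGTGA on the other), the motif at the core of the TFEB element described in human genes; positions count from the RefSeq start as base 1. Mcoln1 rose, Lamp1 and Ctsa fell, and Ctsc fell and held no match; the Ctsa window is that of the downstream of its 2 starts. All 4 lie on the plus strand, at chr8:3500269-3500568 (Mcoln1), chr8:13158911-13159210 (Lamp1), chr2:164833523-164833822 (Ctsa) and chr7:88277835-88278134 (Ctsc).
Mcoln1: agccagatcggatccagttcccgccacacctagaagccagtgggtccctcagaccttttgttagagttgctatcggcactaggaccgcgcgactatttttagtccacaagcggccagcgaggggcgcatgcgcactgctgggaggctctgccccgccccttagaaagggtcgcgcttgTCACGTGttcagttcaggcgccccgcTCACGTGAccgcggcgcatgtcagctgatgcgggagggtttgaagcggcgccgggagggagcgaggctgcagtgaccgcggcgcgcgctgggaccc
Lamp1: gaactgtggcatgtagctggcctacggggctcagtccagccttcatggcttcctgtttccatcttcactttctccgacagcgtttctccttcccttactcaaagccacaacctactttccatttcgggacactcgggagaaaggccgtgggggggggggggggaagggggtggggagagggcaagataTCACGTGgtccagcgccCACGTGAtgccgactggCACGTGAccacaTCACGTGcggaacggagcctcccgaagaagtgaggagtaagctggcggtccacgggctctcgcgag
Ctsa: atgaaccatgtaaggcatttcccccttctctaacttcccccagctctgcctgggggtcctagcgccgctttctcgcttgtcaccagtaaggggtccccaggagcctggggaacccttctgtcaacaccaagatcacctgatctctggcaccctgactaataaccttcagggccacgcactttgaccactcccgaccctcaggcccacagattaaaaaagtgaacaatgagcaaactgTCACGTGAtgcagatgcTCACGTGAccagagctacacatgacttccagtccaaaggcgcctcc
Ctsc: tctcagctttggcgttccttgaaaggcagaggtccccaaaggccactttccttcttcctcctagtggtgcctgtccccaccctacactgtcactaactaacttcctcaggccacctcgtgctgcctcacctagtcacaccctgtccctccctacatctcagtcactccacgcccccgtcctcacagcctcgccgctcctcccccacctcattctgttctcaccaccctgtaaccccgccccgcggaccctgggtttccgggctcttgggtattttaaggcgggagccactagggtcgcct

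Mcoln1 held 2 matches, at -72 to -66 and at -46 to -39. Lamp1 held 4 matches, between -62 and -10. The downstream start of Ctsa held 2 matches, at -13 to -6 and 5 to 12, and its upstream start held none. TCACGTG was present for 10 of the 29 genes, 34.5%, against 4.29% of the 27025 genes in the promoter table. The 8-letter palindrome TCACGTGA, which contains it on both strands, was present for 6 of 29 (20.7%, against 1.12% of genes). The plain E-box CACGTG, which lies inside both, was present for 11 of 29 (37.9%, against 8.09%). Of the 10 genes with TCACGTG, 1 was called higher, 3 lower and 6 not at all at LCA50 in the mean of both genotypes. Of the 19 without it, 1 was higher, 7 lower and 11 not called. The motif was thus present in 1 gene called higher, Mcoln1, and in 3 called lower. Atp6v0a1, the other gene called higher, had none.

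Expressed per kilobase of exon, the levels of the 33 genes ran from 225 CPM per kilobase for Ctsd, an aspartic protease, to 1.56 for Atp6v0a1. The length used was that of all annotated exonic bases of a gene. Which transcripts the cells used was not determined, so the order of genes may depend on the annotation. Psap, the precursor of the saposin lipid-degrading cofactors, followed Ctsd at 150, then Lamp1 at 115 and Ctsz, a carboxypeptidase, at 91.4. The range over libraries of Ctsd, 185 to 268, did not overlap that of Psap, 132 to 175, whereas Lamp1 (101 to 129) and Ctsz (81.9 to 105) overlapped. Tfeb, at 3.78, and the cysteine protease gene Ctsl, at 1.57, were near the low end.

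**Figure D1:**
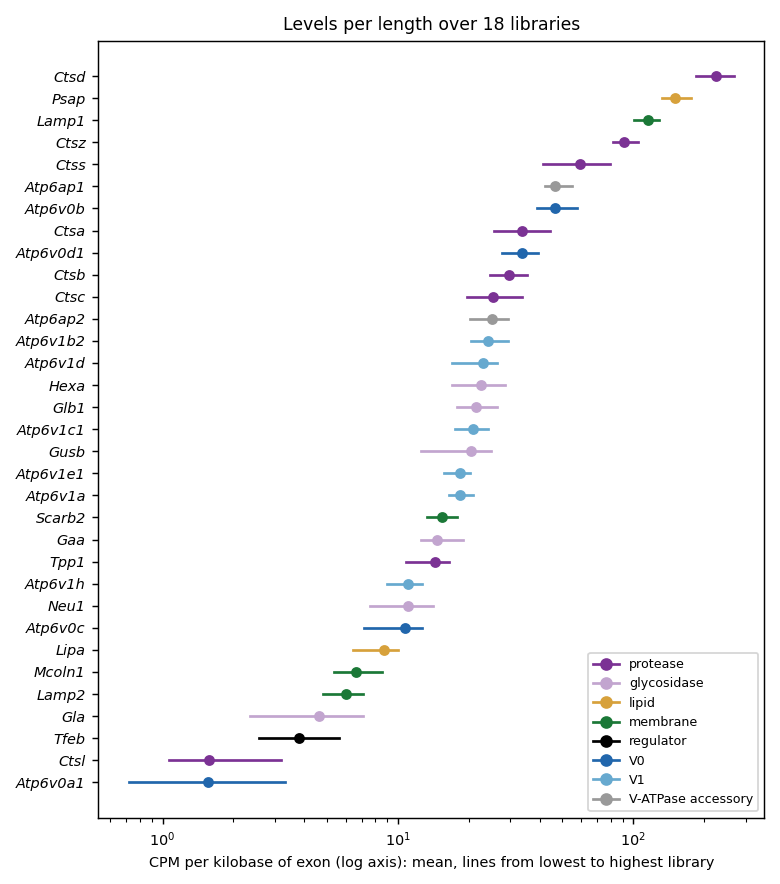
Mean level of each of the 33 genes over 18 libraries in CPM per kilobase of exon (log axis), with lines from the lowest to the highest library and colours for the role. Ctsd at 225 and Psap at 150 stand at the top, and Ctsl at 1.57 and Atp6v0a1 at 1.56 at the bottom; the other V-ATPase genes lie between ranks 6 and 26.

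Proteases gave 2 of the 4 falls in KO cells and 3 of the 6 in WT cells, out of 8 measured and with no rise in either. Their median log2 fold change was -0.20 in KO cells and -0.33 in WT cells. In KO cells Ctsc, the dipeptidyl peptidase that activates granzymes, had 158, 170 and 176 CPM without LCA, 128, 130 and 124 at LCA10 and 114, 128 and 132 at LCA50. In WT cells Ctsc had 160, 169 and 195 CPM without LCA, 164, 144 and 174 at LCA10 and 127, 129 and 128 at LCA50. All 3 LCA50 libraries lay below all 3 control libraries in each genotype, and at LCA10 this held in KO cells but not in WT cells. Ctsc fell at LCA50 by 0.43 ± 0.09 (log2, standard error) in KO cells (edgeR, adjusted p = 0.00191) and by 0.45 ± 0.09 in WT cells (adjusted p = 0.000953). These are 25.6% and 26.5% less.

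At 10 µM, Ctsc was the only one of the 33 genes called in either genotype. It fell by 0.40 ± 0.09 in KO cells (edgeR, adjusted p = 0.0276), which is 1 of 33 genes against 0.326% of all genes (0.206% higher and 0.12% lower). Without KO LCA50 library 1, 2 genes were called. Leaving out KO control library 2 or 3 or any KO LCA10 library ended this call, with adjusted p from 0.0865 to 0.223. In WT cells at LCA10 edgeR called 0 of 33 (0.386% of all genes) and DESeq2 0, although 3 had an unadjusted p under 0.05. The KO minus WT difference in the Ctsc response to LCA10 was not called: 0 of 33 genes were, and 0 of all genes, with 2 of the 33 at an unadjusted p under 0.05 and 0 called by DESeq2.

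In KO cells Ctsa, a carboxypeptidase that protects beta-galactosidase and neuraminidase, had 174, 166 and 167 CPM without LCA, 170, 144 and 157 at LCA10 and 121, 159 and 140 at LCA50. In WT cells Ctsa had 177, 177 and 208 CPM without LCA, 167, 171 and 166 at LCA10 and 139, 125 and 136 at LCA50. The LCA50 libraries were below the control libraries in both genotypes, without overlap. Ctsa fell by 0.49 ± 0.09 in WT cells (edgeR, adjusted p = 0.000392), while in KO cells its log2 fold change was -0.27 ± 0.09 and was not called (adjusted p = 0.067). Without KO LCA50 library 2 it was called in KO cells as well, at -0.37 (adjusted p = 0.0122). The difference between the genotypes was not called.

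Ctsb, a cysteine protease, averaged 155 ± 5.74 CPM in WT LCA50 libraries and 207 ± 7.37 CPM in WT control libraries (SD, n = 3 each), and it fell by 0.41 ± 0.08 (edgeR, adjusted p = 0.00129). In KO cells its log2 fold change was -0.26 ± 0.08 (adjusted p = 0.0513). Ctsl averaged 8.17 ± 1.16 CPM in KO LCA50 libraries and 15.3 ± 4.72 CPM in KO control libraries, and it fell by 0.91 ± 0.24 (adjusted p = 0.0181). That call ended without KO control library 3, which held 20.6 CPM (-0.63, adjusted p = 0.224), and without KO LCA50 library 2 (-0.81, adjusted p = 0.0736). It also ended with only the KO LCA50 and control libraries in the fit (-0.91, adjusted p = 0.0696). Ctsl averaged 8.41 ± 1.33 CPM in WT LCA50 libraries against 11.6 ± 0.733 CPM in WT control libraries, with no call (adjusted p = 0.286). Ctsz and the tripeptidyl peptidase gene Tpp1 had no call in any comparison.

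The glycosidases had 1 call in KO cells and none among WT cells, out of 6 in each. Gusb, beta-glucuronidase, averaged 71.7 ± 12.9 CPM in KO LCA50 libraries and 102 ± 3.31 CPM in KO control libraries, and it fell by 0.51 ± 0.11 (edgeR, adjusted p = 0.00375). In WT cells Gusb averaged 89.3 ± 3.61 CPM at LCA50 and 108 ± 6.97 CPM in control, with a log2 fold change of -0.28 ± 0.11 (adjusted p = 0.117). Lipa, the acid lipase that frees cholesterol from its esters, averaged 52 ± 7.3 CPM in WT LCA50 libraries and 66.9 ± 1.54 CPM in WT control libraries. It fell by 0.36 ± 0.12 (adjusted p = 0.0432), a call that was lost without WT control library 1, 2 or 3 or WT LCA50 library 2 or 3 (adjusted p from 0.0526 to 0.266), with only the groups compared in the fit (adjusted p = 0.0516) and with the replicate number as a block (adjusted p = 0.0538). In KO cells Lipa averaged 50.8 ± 2.07 CPM at LCA50 and 62.5 ± 0.424 CPM in control, with no overlap between the libraries and no call (-0.30 ± 0.12, adjusted p = 0.126).

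**Figure D2:**
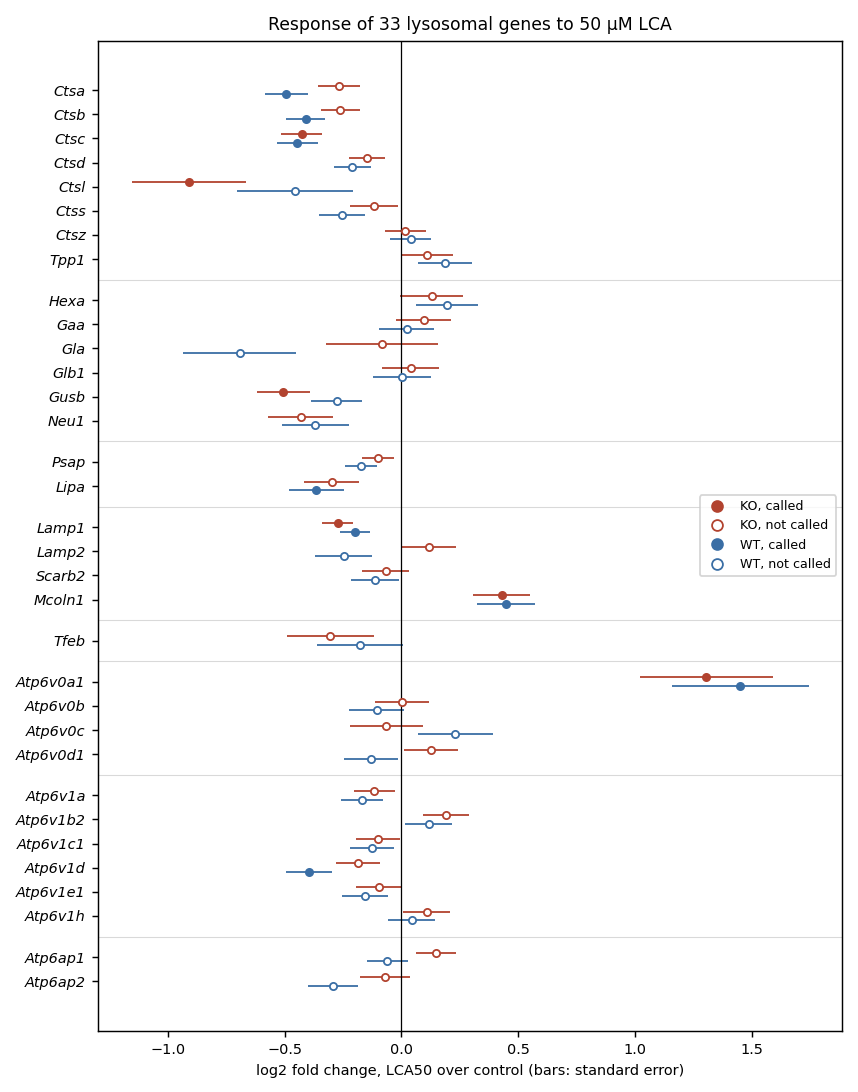
Log2 fold change of LCA50 over control for each of the 33 genes, KO in red and WT in blue, with standard errors; filled points are called. The filled points on the right are Mcoln1 and Atp6v0a1 in both genotypes, and all other filled points, with Ctsc and Lamp1 in both genotypes, lie on the left.

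Among the membrane proteins 1 of 4 fell and 1 rose in each genotype. In KO cells Lamp1, an abundant glycoprotein of the lysosomal membrane, had 345, 331 and 344 CPM without LCA, 298, 291 and 296 at LCA10 and 286, 270 and 288 at LCA50. In WT cells Lamp1 had 332, 342 and 346 CPM without LCA, 284, 300 and 312 at LCA10 and 290, 298 and 301 at LCA50. Every library with LCA, at either dose, was below every control library of its genotype. In KO cells the LCA50 libraries lay below the LCA10 libraries, and in WT cells they overlapped. Lamp1 fell at LCA50 by 0.27 ± 0.07 in KO cells (edgeR, adjusted p = 0.00694) and by 0.20 ± 0.07 in WT cells (adjusted p = 0.0481). The KO call held without each library in turn. The WT call was lost without any of the 3 WT control or 3 WT LCA50 libraries, KO control library 1 or 2, or WT LCA10 library 2 (adjusted p from 0.0501 to 0.125), with log2 fold changes from -0.22 to -0.19. It was also lost with DESeq2 size factors (adjusted p = 0.0527), no filter on low counts (0.0872), a mean CPM of at least 5 (0.0555), only the groups compared (0.0721) and the replicate block (0.0591). With the settings on background, that is 16 of 26 alternatives, with log2 fold changes from -0.23 to -0.19.

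In KO cells Mcoln1, a lysosomal channel that releases calcium and is known to act upstream of TFEB, had 42.9, 47.5 and 41.1 CPM without LCA, 46.7, 58.7 and 49.9 at LCA10 and 64.6, 62.2 and 50.5 at LCA50. In WT cells Mcoln1 had 40.5, 43.3 and 43.3 CPM without LCA, 43.9, 51.5 and 42.8 at LCA10 and 56.4, 58.7 and 58.5 at LCA50. The LCA50 libraries lay above the control libraries in both genotypes, and the LCA10 libraries between or overlapping them. Mcoln1 rose at LCA50 by 0.43 ± 0.12 in KO cells (edgeR, adjusted p = 0.029) and by 0.45 ± 0.12 in WT cells (adjusted p = 0.0184), which is 34.6% and 36.5% more. The KO call was lost without KO control library 1 or 3 or KO LCA50 library 1 or 2 (log2 0.36 to 0.41, adjusted p from 0.0923 to 0.153) and with only the groups compared (0.43, adjusted p = 0.0786). The WT call was lost without WT control library 1 or 3 or WT LCA50 library 2 or 3 (log2 0.41 to 0.46, adjusted p from 0.052 to 0.0842). Averaged over genotypes the rise was 0.44 ± 0.09 (adjusted p = 0.000418).

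The regulator Tfeb had 24.5, 17.9 and 21.6 CPM without LCA, 19, 19.8 and 22.3 at LCA10 and 14.5, 18.2 and 18.8 at LCA50 in KO cells. In WT cells Tfeb had 24.4, 21.8 and 24.5 CPM without LCA, 19.1, 31.7 and 25.6 at LCA10 and 24, 18.3 and 20.1 at LCA50. The LCA50 and control libraries overlapped in both genotypes. The log2 fold changes at LCA50 were -0.30 ± 0.19 in KO cells (edgeR, adjusted p = 0.398) and -0.18 ± 0.18 in WT cells (adjusted p = 0.619), with 95% intervals of -0.69 to 0.08 and -0.55 to 0.20. Tfeb transcript level does not report the location or phosphorylation of the protein, through which TFEB is known to be controlled.

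Of the 12 V-ATPase genes, the V0 subunit gene Atp6v0a1 rose in both genotypes, the V1 subunit gene Atp6v1d fell in WT cells, and no other was called at LCA50 in either. In KO cells Atp6v0a1, an isoform of the large V0 subunit that places the pump in particular membranes, had 6.32, 4.71 and 6.76 CPM without LCA, 11.0, 18.4 and 8.89 at LCA10 and 21.7, 9.71 and 13.2 at LCA50. In WT cells Atp6v0a1 had 4.96, 5.59 and 5.26 CPM without LCA, 9.09, 7.27 and 7.42 at LCA10 and 12.9, 14.9 and 15.6 at LCA50. Every library with LCA exceeded every control library of its genotype, and in WT cells the LCA50 libraries also exceeded the LCA10 libraries. Atp6v0a1 rose at LCA50 by 1.30 ± 0.29 in KO cells (2.47-fold, 95% interval 1.65 to 3.69; edgeR, adjusted p = 0.00333) and by 1.45 ± 0.29 in WT cells (2.73-fold, 1.81 to 4.12; adjusted p = 0.00124). Without KO LCA50 library 1, which held the highest level, the KO value was 0.94 and was not called (adjusted p = 0.0644). Its counts ran from 24 to 91 a library, with a mean of 10.2 CPM. The other isoforms tested, Atp6v0a2 and Tcirg1, averaged 224 and 77.5 CPM over all libraries, not scaled to gene length. Neither was called by edgeR at LCA50, with log2 fold changes of -0.21 and -0.15 in KO cells and 0.04 and 0.02 in WT cells.

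In KO cells Atp6v1d, a subunit of the central stalk, had 117, 120 and 112 CPM without LCA, 110, 103 and 96.9 at LCA10 and 88.7, 113 and 104 at LCA50. In WT cells Atp6v1d had 113, 115 and 110 CPM without LCA, 110, 106 and 121 at LCA10 and 93.1, 78.1 and 85.6 at LCA50. The WT LCA50 libraries lay below all other WT libraries, whereas the KO LCA50 and control libraries overlapped. Atp6v1d fell by 0.40 ± 0.10 in WT LCA50 against control (edgeR, adjusted p = 0.00705) and had a log2 fold change of -0.19 ± 0.10 in KO cells (adjusted p = 0.281). The WT call was lost without WT LCA50 library 2, at -0.34 (adjusted p = 0.0651).

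In KO cells Atp6v1a, the catalytic subunit, had 117, 121 and 107 CPM without LCA, 107, 123 and 114 at LCA10 and 104, 107 and 107 at LCA50. In WT cells Atp6v1a had 108, 126 and 113 CPM without LCA, 120, 106 and 112 at LCA10 and 103, 99.4 and 107 at LCA50. The groups lay close together, and Atp6v1a was not called (edgeR, -0.12 ± 0.09, adjusted p = 0.527 in KO cells and -0.17 ± 0.09, adjusted p = 0.267 in WT cells). Of the 12 V-ATPase genes, the 95% interval of the LCA50 log2 fold change lay inside -0.5 to 0.5 for 11 in KO cells, all but Atp6v0a1. In WT cells this held for 8, with Atp6v0a1, Atp6v0c, Atp6v1d and Atp6ap2 reaching outside. For the other 21 genes it held for 13 in KO cells and 11 in WT cells.

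**Figure D3:**
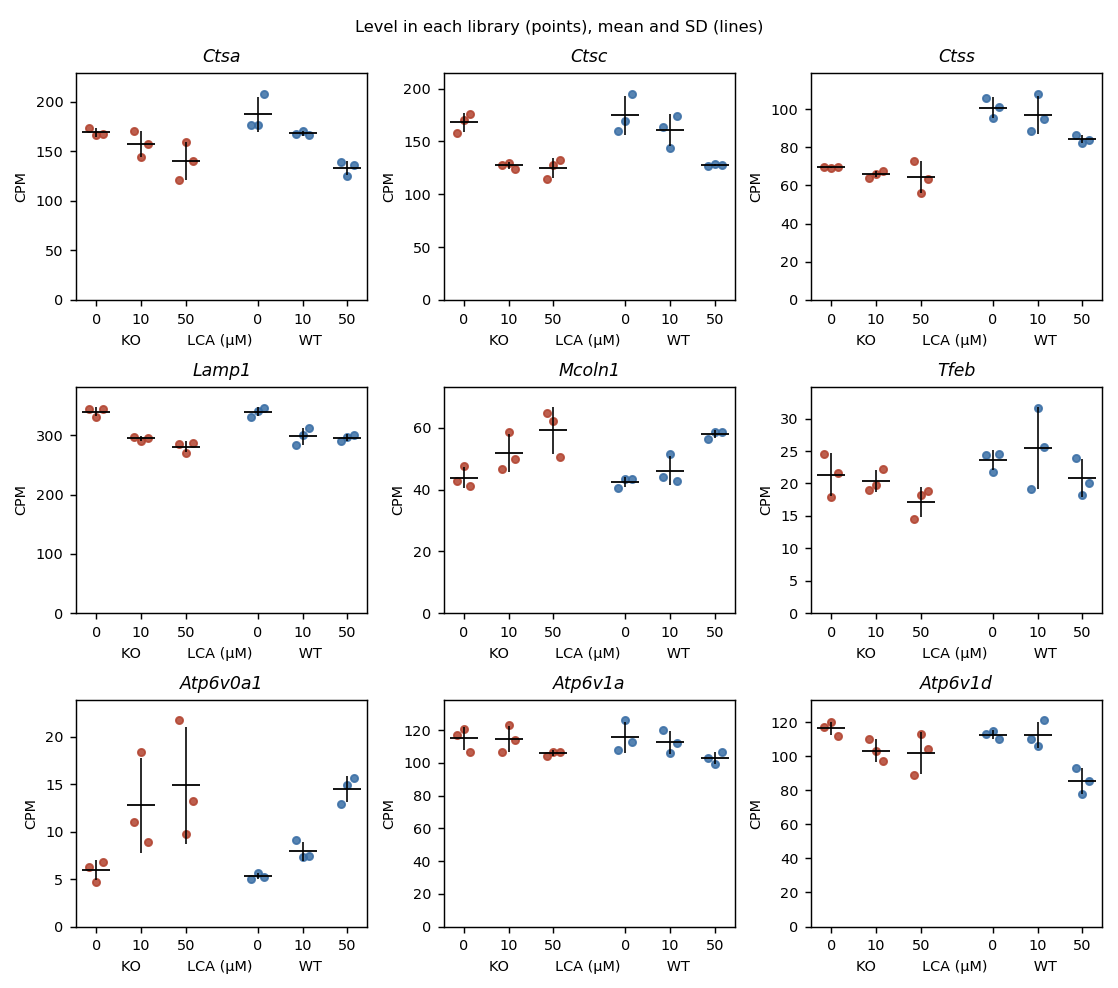
CPM of 9 genes in each library (points) at 0, 10 and 50 µM LCA in KO (red) and WT (blue) cells, with the mean and SD as lines and the axis starting at 0. Ctsa, Ctsc and Lamp1 are lower at LCA50, Mcoln1 and Atp6v0a1 are higher, Ctss differs between KO and WT, and Tfeb and Atp6v1a overlap.

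KO and WT cells share no library at LCA50 or in control, so their responses can be set side by side. The log2 fold changes had the same sign for 28 of the 33 genes (84.8%), where 66.6% of all genes did, 19 of them lower and 9 higher in both. The 33 genes averaged from 10.2 to 528 CPM. Genes of like level were not compared separately, here or for the shares of calls above. Ctsc, Lamp1, Mcoln1 and Atp6v0a1 were called in both genotypes, 10 genes in at least 1, and 23 in neither. Taking the means at 0, 10 and 50 µM, 16 genes declined and 7 increased at each step in KO cells (22.1% and 22.6% of all genes did so). In WT cells 19 declined and 4 increased (22.8% and 23.4% of all genes). The summed level of the 33 genes was 3807 to 3869 CPM in KO control libraries, 3590 to 3647 at LCA10 and 3451 to 3617 at LCA50. In WT cells it was 3836 to 4017, 3579 to 3840 and 3381 to 3534.

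No gene's response to LCA50 differed between KO and WT at the threshold: 0 of the 33 genes, and 0 of all genes, were called by edgeR for the KO minus WT difference, with 1 of the 33 at an unadjusted p under 0.05 and 0 called by DESeq2. That gene was Lamp2, a membrane glycoprotein needed for autophagosome clearance. A p that misses the threshold does not show that the responses were alike. Between the doses, 3 of 33 genes fell at LCA50 against LCA10 in WT cells (2.27% of all genes were called, 0.798% higher and 1.47% lower), namely Ctsa (-0.34), Ctsc (-0.33) and Atp6v1d (-0.39). In KO cells 0 of 33 differed between the doses by edgeR (1.38% of all genes, 0.463% higher and 0.918% lower), with 2 at an unadjusted p under 0.05 and 0 called by DESeq2. These 3 calls were lost together without WT LCA10 library 3 or WT LCA50 library 2 or 3. Ctsa was also lost without WT LCA10 library 1 or 2 (adjusted p = 0.0714 and 0.113), and Ctsc without WT LCA10 library 1 or WT LCA50 library 1 (adjusted p = 0.0957 and 0.0725).

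Averaged over genotypes, 2 genes rose and 11 fell at LCA50, 39.4% of the 33 genes against 16.5% of all genes (7.86% higher and 8.66% lower). The additional falls were Neu1, a sialidase, by 0.40 ± 0.10 (edgeR, adjusted p = 0.00471), Ctsd by 0.18 ± 0.06 (adjusted p = 0.0226) and Psap by 0.14 ± 0.05 (adjusted p = 0.043). Psap lost its call without any of 6 single libraries and Ctsd without any of 5. For Psap these were WT control library 3, KO control library 1 or 3, WT LCA50 library 2 or 3 and KO LCA50 library 2 (adjusted p from 0.0507 to 0.133). For Ctsd they were WT control library 3, KO control library 3, WT LCA50 library 2 or 3 and KO LCA50 library 1 (adjusted p from 0.0536 to 0.0661). With background as a covariate both lost their calls (Psap -0.15, adjusted p = 0.068; Ctsd -0.09, adjusted p = 0.308). Psap also lost its call with no filter (adjusted p = 0.0565) and with only the groups compared (adjusted p = 0.0566), and Ctsd without both libraries of highest background (-0.10, adjusted p = 0.142). At LCA10 1 rose and 2 fell, 3 of 33 against 1.82% of all genes (1.01% higher and 0.807% lower): Atp6v0a1 (0.84 ± 0.21), Ctsc (-0.26 ± 0.06) and Lamp1 (-0.20 ± 0.05). This comparison uses the libraries of those within each genotype. The count at LCA10 was 1 without WT control library 3 or WT LCA10 library 1 or 2, and 5 without KO LCA50 library 1. Ctsc was not called at LCA10 without WT control library 3, KO control library 3 or WT LCA10 library 2 (-0.24 to -0.22, adjusted p from 0.074 to 0.1). Lamp1 was not called without WT LCA10 library 1 (-0.18, adjusted p = 0.0585). Atp6v0a1 was not called without any WT control library, KO control library 1 or 2, WT LCA10 library 1 or 2 or KO LCA10 library 2 (0.66 to 0.87, adjusted p from 0.0537 to 0.169).

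Between the guides, Ctss stood lower in KO cells at every dose. Ctss, a cysteine protease that processes invariant chain in antigen-presenting cells, had 69.7, 69.0 and 69.6 CPM in KO control libraries, against 106, 95.4 and 101 CPM in WT control libraries. At LCA10 it had 64.1, 66.1 and 67.7 CPM in KO cells, against 88.5, 108 and 94.7 CPM in WT cells. At LCA50 it had 72.9, 56.1 and 63.6 CPM in KO cells, against 86.5, 82.2 and 84.0 CPM in WT cells. No KO library reached any WT library at the same dose. Ctss was lower in KO cells by edgeR in control (-0.53 ± 0.10, adjusted p = 0.00372), at LCA10 (-0.56 ± 0.10, adjusted p = 0.00209) and at LCA50 (-0.40 ± 0.10, adjusted p = 0.0348). The LCA50 call was lost without any WT LCA50 library or KO LCA50 library 2 or 3 (adjusted p from 0.0907 to 0.211), with only the groups compared (adjusted p = 0.171) and with background as a covariate (adjusted p = 0.133). The calls in control and at LCA10 held without each library in turn. It was the only 1 of 33 genes called in control (0.627% of all genes, 0.326% higher and 0.3% lower) and at LCA10 (0.661%, 0.412% higher and 0.249% lower), and 1 of 2 at LCA50 (1.94%, 1.42% higher and 0.524% lower). Without KO LCA50 library 1, 2 genes were called in control, and without that library or WT LCA10 library 2, 2 at LCA10. At LCA50 0 were called without WT LCA50 library 2 or 3 or KO LCA50 library 2 or 3.

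The other was Ctsd, at 443, 614 and 584 CPM in KO LCA50 libraries, against 466, 435 and 435 CPM in WT LCA50 libraries. The groups overlapped, since KO LCA50 library 1 lay inside the WT range. Ctsd was higher in KO cells by 0.30 ± 0.08 (edgeR, adjusted p = 0.0348), a call lost without KO control library 1, WT LCA50 library 2 or 3 or KO LCA50 library 2 or 3 (log2 0.21 to 0.30, adjusted p from 0.052 to 0.227). It was also lost with only the groups compared (0.29, adjusted p = 0.277), with the replicate block (0.29, adjusted p = 0.0532) and with background as a covariate, where it was 0.16 (adjusted p = 0.375). In control Ctsd had 588 to 629 CPM in KO cells, against 501 to 530 CPM in WT cells. At LCA10 it had 548 to 582 CPM against 494 to 511 CPM. Neither dose showed overlap, as for 8.35% of all genes in control and 7.59% at LCA10, and edgeR called Ctsd at neither. Averaged over doses, 1 gene was higher and 2 lower in KO cells, 3 of 33 against 5.15% of all genes (3.36% higher and 1.79% lower): Ctsd (0.23 ± 0.05), Ctss (-0.50 ± 0.06) and Psap (-0.14 ± 0.04, adjusted p = 0.0198). Psap was not called without WT control library 3, KO control library 2, WT LCA10 library 2 or KO LCA10 library 1 (adjusted p from 0.0554 to 0.0648).

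Myeloid cells carry much cathepsin S, and myeloid markers differed between the guides as well. The 18 markers summed to 28.4 to 46.3 CPM in KO libraries, against 73.8 to 113 CPM in WT libraries, with no overlap. Means were lower in KO cells for 18 of 18 markers in control, 16 of 18 at LCA10 and 16 of 18 at LCA50. Lyz2 was called lower in KO cells at every dose, S100a8 and Ngp in control and Cybb at LCA50. Of these markers, Camp was at 0 in 14 of 18 libraries and Ngp in 8. At LCA50 against control, 3 of the 14 markers tested were called lower in WT cells (S100a8, S100a9 and Ngp) and 0 in KO cells. S100a8 and S100a9 were each at 0 in 7 of 18 libraries. Means in WT cells were lower at LCA50 for 9 of the 18 markers and higher for 9. In KO cells they were lower for 6 and higher for 10. The sums overlapped in WT cells, at 79.6 to 93.5 CPM at LCA50 and 73.8 to 113 CPM in control. They also overlapped in KO cells, at 28.4 to 41.1 and 30.1 to 37.6 CPM. The 8 red cell and platelet markers, mostly Pf4 and Itga2b, differed between the guides too. They summed to 0.376 to 6.07 CPM in KO control libraries, against 31.5 to 57.2 CPM in WT control libraries. At LCA50 they summed to 4.75 to 7.12 CPM in KO cells, against 11.9 to 47.3 CPM in WT cells. At LCA10 the guides overlapped (5.13 to 22.1 and 3.7 to 13.7 CPM), and WT LCA10 lay below WT control. Whether these marker differences between the guides account for the Ctss difference was not tested. In bulk RNA fewer cells of a type and less RNA per cell cannot be told apart.

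**Figure D4:**
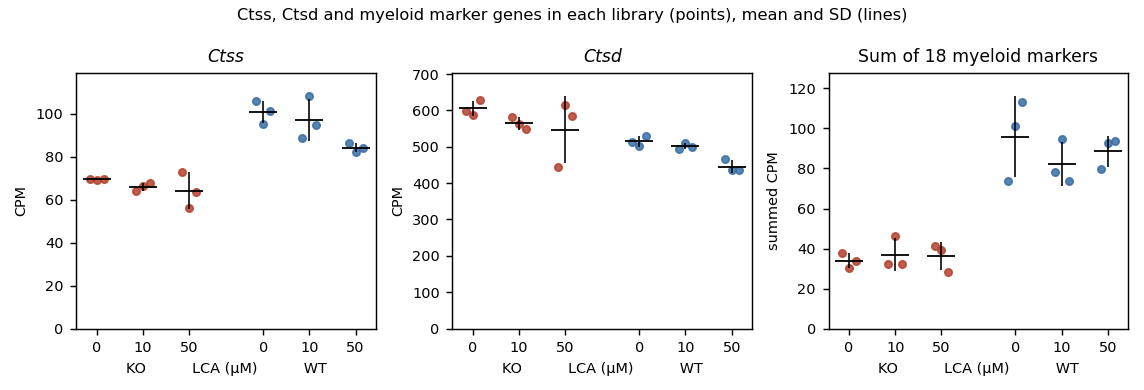
CPM of Ctss and Ctsd and the summed CPM of 18 myeloid markers in each library (points), with mean and SD, at 0, 10 and 50 µM LCA in KO (red) and WT (blue) cells. Ctss and the markers lie lower in every KO library than in the WT libraries of the same dose, and Ctsd overlaps at LCA50.

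Several calls share exonic sequence with neighbours. On GRCm38, with the GENCODE annotation, Pltp overlaps 10.5% of the exonic bases of Ctsa on the opposite strand, and Pltp fell at LCA50 by 1.68 in KO cells (edgeR, adjusted p = 0.000173) and by 1.11 in WT cells (adjusted p = 0.00747). Pltp averaged 7.02 ± 3.54 CPM in KO LCA50 libraries and 22.9 ± 2.40 CPM in KO control libraries (SD, n = 3 each), where Ctsa averaged 140 ± 18.8 and 169 ± 4.6. Grtp1 overlaps 9.31% of the exonic bases of Lamp1 on the opposite strand, and it fell by 1.66 in KO cells (adjusted p = 0.00227) and by 1.62 in WT cells (adjusted p = 0.00583). Grtp1 averaged 3.28 ± 1.18 CPM in KO LCA50 libraries and 10.3 ± 0.61 CPM in KO control libraries, where Lamp1 averaged 281 ± 10 and 340 ± 7.85. Fdft1 overlaps 12.8% of the exonic bases of Ctsb on the opposite strand, and it fell by 0.61 in WT cells (adjusted p = 0.0118), where it averaged 53.5 ± 8.66 CPM at LCA50 and 81.3 ± 1.80 CPM in control. Whether counting used the strand is not given, and the part of these neighbours in the 3 results was not tested. Ctsl shares exonic bases with Gm47123 and Gm49230, and Ctsd shares 34.4% of its exonic bases with Gm49369 on the same strand. None of these Gm genes is in the count table, so their levels and their part in the Ctsl and Ctsd counts are not known. Ctsa lies at chr2:164832873-164841032, Ctsb at chr14:63122462-63145923, Ctsc at chr7:88278085-88310888, Ctss at chr3:95526786-95556403, Lamp1 at chr8:13159161-13175338, Mcoln1 at chr8:3500457-3515232 and Atp6v0a1 at chr11:101009452-101063719.

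Reads from chemosensory receptor genes, a measure of background, differed between LCA50 libraries. The 1470 genes summed to 164, 47.2 and 93.4 CPM in KO LCA50 libraries, against 96.8, 94.0 and 113 CPM in KO control libraries. In WT cells they summed to 121, 139 and 223 CPM at LCA50, against 79.5, 108 and 50.4 CPM in control, so that background and LCA50 cannot be told apart there. With this background as a covariate, 0 of the 33 genes were called in WT LCA50 against control, and 9 were called in KO cells, among them Ctsa (-0.28, adjusted p = 0.0289). Of all genes tested, 2.33% were called in WT cells at that setting (8.58% without the covariate) and 8.17% in KO cells (6.35% without it). The loss of calls in WT cells was thus not particular to the 33 genes. All 8 WT genes kept their direction, and their sizes changed unequally. Lipa (-0.39, adjusted p = 0.202), Lamp1 (-0.23, adjusted p = 0.147) and Mcoln1 (0.42, adjusted p = 0.183) were about as large as without the covariate. Ctsb (-0.34, adjusted p = 0.0721), Ctsc (-0.38, adjusted p = 0.0646) and Atp6v1d (-0.29, adjusted p = 0.243) were smaller. Ctsa (-0.33, adjusted p = 0.109, against -0.49 without it) and Atp6v0a1 (0.89, adjusted p = 0.167, against 1.45) shrank by over 1.5 times on the log2 scale. The WT differences between LCA50 and LCA10 were not called with it either, at -0.18 for Ctsa, -0.26 for Ctsc and -0.29 for Atp6v1d (adjusted p = 0.672, 0.44 and 0.435). With the LCA50 library of highest background left out in each genotype together, 7 genes were called in WT cells, all but Lamp1 (-0.21, adjusted p = 0.0603), and 3, all lower, in KO cells. Of all genes, 7.51% were then called in WT cells and 3.64% in KO cells. The KO calls lost were Gusb (-0.37, adjusted p = 0.0535), Mcoln1 (0.36, adjusted p = 0.161) and Atp6v0a1 (0.94, adjusted p = 0.069).

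Other genes of the lysosome were read from 6 further lists. Of all genes tested, 2.93% were called higher and 3.42% lower at LCA50 in KO cells, and 3.66% higher and 4.93% lower in WT cells. The counts of each list are to be read against these shares. Of 30 other lysosomal hydrolases tested, 7 fell and 0 rose in KO cells at LCA50, and 6 fell and 0 rose in WT cells, 5 of them in both. Their median log2 fold change was -0.13 in KO cells and -0.18 in WT cells. Acp5, the tartrate-resistant acid phosphatase, averaged 28.6 ± 4.23 CPM in KO LCA50 libraries and 75.2 ± 6.25 CPM in KO control libraries (SD, n = 3 each) and fell by 1.39 ± 0.16 (edgeR, adjusted p = 5.55e-07). In WT cells Acp5 averaged 18.7 ± 2.66 CPM at LCA50 and 78.7 ± 6.28 CPM in control, and it fell by 2.07 ± 0.17 (adjusted p = 4.51e-10). Scpep1, a serine carboxypeptidase, fell by 0.41 in KO cells (adjusted p = 0.00368) and by 0.59 in WT cells (adjusted p = 5.4e-05). Man2b1, alpha-mannosidase, fell by 0.33 in KO cells (adjusted p = 0.0061), and Gm2a, the ganglioside activator, fell by 0.45 in WT cells (adjusted p = 0.000185). With background as a covariate 3 of the 30 fell in WT cells, where Asah1 and Man2b1 were among the calls lost (adjusted p = 0.294 and 0.0814), and in KO cells 8 fell and 1, Naglu, rose (0.47, adjusted p = 0.0416). At that setting 2.33% of all genes were called in WT cells and 8.17% in KO cells.

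Of 23 other membrane and transport proteins 0 were called in KO cells, and 2 fell in WT cells: the cholesterol carrier Npc2 by 0.47 (edgeR, adjusted p = 0.00382) and the channel Tpcn1 by 0.88 (adjusted p = 0.0499). The Npc2 call was lost with background as a covariate (-0.21, adjusted p = 0.365), and that of Tpcn1 there (adjusted p = 0.383) and with 4 other settings (adjusted p from 0.0504 to 0.116). The most abundant of that list in KO cells were Laptm5, with a log2 fold change of 0.18 (adjusted p = 0.0526), and Npc2, with -0.28 (adjusted p = 0.102). Other settings called both in KO cells. Laptm5 was called higher by DESeq2 (adjusted p = 0.0198). In edgeR it was called with a mean CPM of at least 5 and with background as a covariate (adjusted p = 0.0401 and 0.0328). Npc2 was called lower in edgeR with no filter and with background as a covariate (adjusted p = 0.0245 and 0.0191). Of 6 other V-ATPase subunits 0 were called in KO cells, where Atp6v0a2 had -0.21 (adjusted p = 0.194) and Atp6v0e -0.03 (adjusted p = 0.905), and 2 fell in WT cells, Atp6v0e by 0.32 (adjusted p = 0.0342) and Atp6v1f by 0.38 (adjusted p = 0.0431). With background as a covariate 0 of these 6 were called in WT cells (Atp6v0e -0.15, adjusted p = 0.578; Atp6v1f -0.16, adjusted p = 0.653), and 0 without the 2 LCA50 libraries of highest background (-0.23, adjusted p = 0.168; -0.35, adjusted p = 0.0861). Of 13 genes of delivery by mannose 6-phosphate, Gnptab, which makes the sorting tag, fell by 0.56 in KO cells (adjusted p = 0.000934), and the adaptor Ap1b1 rose by 0.26 in WT cells (adjusted p = 0.046).

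Of 19 MiT factor, Rag GTPase and mTORC1 genes 0 were called in KO cells, where Rragc had 0.16 (edgeR, adjusted p = 0.288) and Rheb -0.11 (adjusted p = 0.619). Fnip2 of that list had 0.89 in KO cells (edgeR, adjusted p = 0.0537). It was called higher there by DESeq2 (adjusted p = 0.0453). In edgeR it was called with a mean CPM of at least 5 and with background as a covariate (adjusted p = 0.0495 and 0.0444). In WT cells 1 rose, Tfe3, a factor related to TFEB, by 0.54 (adjusted p = 0.035). Of 24 autophagy genes, Map1lc3b, an LC3 protein gene, fell in both genotypes, by 0.51 in KO cells (adjusted p = 0.00389) and by 0.45 in WT cells (adjusted p = 0.00948), and Atg3 rose by 0.35 in KO cells (adjusted p = 0.0291). With background as a covariate the WT calls of Ap1b1, Tfe3 and Map1lc3b were lost (adjusted p = 0.176, 0.277 and 0.189). Ap1b1 was also lost with no filter and with the replicate block, and Atg3 in KO cells with only the groups compared and without the libraries of highest background (adjusted p = 0.0751 and 0.121). Single calls in the lists of 19 and 24 genes lie near the shares of all genes given above. All named here are log2 fold changes of LCA50 over control.

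**Figure D5:**
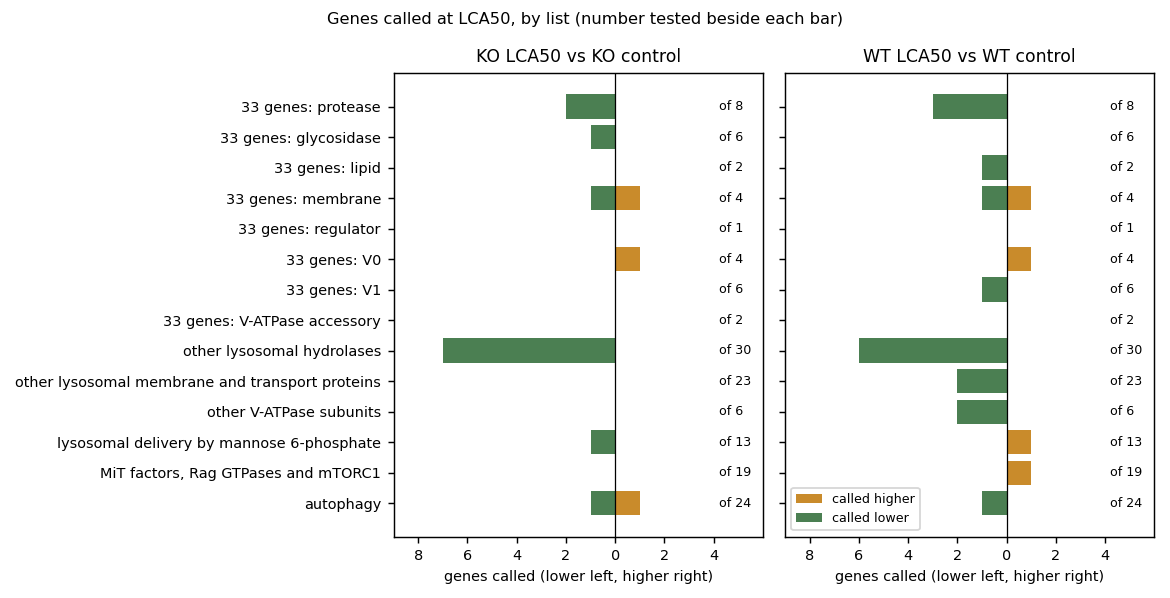
Genes called higher (right) and lower (left) at LCA50 against control, in KO cells (left panel) and WT cells (right panel), for the roles of the 33 genes and 6 further lists, with the number tested beside each bar. The other hydrolases have 7 falls in KO cells and 6 in WT cells and no rise. Of all genes, 3.42% were called lower in KO cells and 4.93% in WT cells.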

How the data were processed

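The authors' table holds raw counts per gene symbol, as deposited, with no normalization. Per the submitters' processing notes, STAR, HOMER and DESeq2 and the builds GRCm38 and mm10 were used, with no versions or roles; how reads were counted, whether strand was used and any filter are not given in the sources used here. Groups came from the labels, 3 libraries in each of 6 groups, and depth was 4113713 to 5945518 counts per library. Libraries of a group differed by 2.44 to 8.56 times counting error (scaled squared difference), so none was a copy.

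Counts were analysed in edgeR 4.0.16 (R 4.3.3, limma 3.58.1) with filterByExpr by group, leaving 11651 genes, TMM scaling and a robust quasi-likelihood fit of 6 group means to all 18 libraries. The labels name no batch, so no covariate was used. F tests were adjusted by Benjamini-Hochberg within each contrast over all genes, with calls under 0.05. A standard error was taken from each log2 fold change and the root of its F statistic, and intervals are 95%. CPM use TMM-scaled library sizes. The code was checked on simulated data. DESeq2 1.42.0, other scalings and filters, the groups compared alone, the replicate number as a block, background as a covariate and left-out libraries were tried. For contrasts other than LCA50 within genotype the single-gene versions of these, and for the further lists all but single left-out libraries, were decided after seeing the data.

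The 33 genes, the further lists (125 genes) and the markers were chosen with earlier results of these data known, so their directions are no independent evidence. Markers Trac, Trdc and Tcrg-C1 had no symbol to match. Values per library were given for genes called in at least 2 of 9 pairwise contrasts and for Tfeb, Lamp1 and Atp6v1a, group means for those called once, and up to 3 called genes each way of each further list per LCA50 contrast, by smallest p, or the 2 with the highest level where no gene was called. Some genes of the further lists were named outside this rule where other settings changed their calls. Gene positions and exonic bases are from GENCODE release M21 on GRCm38, which all 33 symbols matched, and promoters from RefSeq on GRCm38.p6.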

Additional observations from a re-analysis of the deposited data

Results flagged for a closer look

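Lamp2, a lysosomal membrane glycoprotein, had LCA50 libraries on opposite sides of the control libraries in the 2 genotypes. It had 61.7, 57.0 and 57.1 CPM in KO LCA50 libraries, against 52.3, 56.2 and 53.6 CPM in KO control libraries, so that all 3 LCA50 libraries were higher. It had 50.0, 50.2 and 53.5 CPM in WT LCA50 libraries, against 67.9, 55.9 and 58.7 CPM in WT control libraries, so that all 3 were lower. The KO minus WT difference in the log2 response was 0.364 ± 0.17 (standard error). It had an unadjusted p of 0.0383 and an adjusted p of 0.794 in edgeR and was not called.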

How the results depend on the processing

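Counting the 33 genes called, the settings other than single left-out libraries moved these counts by over 1.5 times. KO LCA50 against control gave 3 (6 as reported) without WT LCA50 library 3 and KO LCA50 library 1, the LCA50 libraries of highest background. With background as a covariate, WT LCA50 gave 0 (8) against control and 0 (3) against LCA10. KO LCA10 gave 2 (1) with no filter, with background and without both libraries. KO against WT gave 2 (1) in control with only the groups compared, with background and without both libraries, and 2 (1) at LCA10 with DESeq2, no filter, background and without both libraries. At LCA50 it gave 0 (2) with only the groups compared and 1 with background, and LCA10 averaged over genotypes gave 5 (3) with only the groups compared and without both libraries. The cause was not tested. Leaving out single libraries gave 4 to 8 genes for KO LCA50, 4 to 10 for WT LCA50, 0 to 2 for KO LCA10, 0 to 4 for WT LCA50 against LCA10, 1 to 2 for KO against WT in control and at LCA10 each, 0 to 3 at LCA50, 11 to 14 for LCA50 averaged over genotypes, 1 to 5 for LCA10 averaged and 2 to 4 for KO against WT averaged over doses. Every called value of a named gene kept its direction; Tfeb in WT LCA50, not called (-0.18), ranged from -0.30 to 0.04, turning its sign with background as a covariate. Over all genes, KO LCA50 against control gave 372 calls (740 as reported) with only the groups compared and 428 without both libraries, and WT LCA50 gave 272 (1000) with background. Single left-out libraries gave 384 to 814 and 522 to 1304 for KO and WT cells, and were not run for the further lists.

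With the replicate number as a block, KO against WT at LCA50 called 1 gene (2 without it). Of the other calls named, the block ended those of Lipa (edgeR, adjusted p = 0.0538), Lamp1 (0.0591), Tpcn1 (0.0567) and Ap1b1 (0.057) in WT LCA50. Deviations of same-numbered libraries correlated from -0.218 to 0.0881 over 45 pairs (median -0.00125), and 3 of 18 libraries correlated best with their own number. Pairs of different number correlated from -0.167 to 0.192 (median 0.00129). No shared deviation was thus seen. With 3 libraries in a group this cannot tell whether equal numbers share a mouse or culture. At 4113713 to 5945518 counts a library, genes of few counts such as Atp6v0a1, Ctsl, Gla and Tfeb carry wide standard errors.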
